A study of Mus musculus with 4 samples.

Results

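Solute carriers are membrane proteins that move nutrients, ions, metals and metabolites across the plasma membrane and the membranes of organelles. They are grouped into numbered families, and most families share a class of substrate. Some work as exchangers, some use the sodium or proton gradient, and some let their substrate run down its own gradient. Several need a partner protein to reach the cell surface: Slc3a2 carries the light chains of the Slc7 family there, and basigin or embigin carry the lactate transporters of the Slc16 family. In skin, glucose and lactate carriers serve keratinocyte metabolism, a fatty acid carrier serves the lipid barrier, and zinc and copper carriers supply metals that pigment enzymes and transcription factors depend on.

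Here 133 solute carrier genes expressed in mouse back skin epidermis are described. They are the genes whose symbol has the form Slc, number, a, number, and they were selected on their deposited FPKM (fragments divided by transcript length and library size), which had to be 5 or more in at least 2 of 4 libraries. Slc45a2, Slc24a5 and Slc4a1 were left out by name. In all, 289 of the 17721 deposited genes had such a symbol, and 153 of them fell below the FPKM rule. Of those 153 genes, 86 were too low to be tested, and 67 were tested, with 11 higher and 24 lower in LDB2-/-. The symbols also take in 3 genes that are not transporters but are named after one, Slc9a3r1, Slc4a1ap and Slc7a6os, which were kept as a class of their own.

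The study set 2 libraries from mice labelled LDB2-/-, for loss of the LIM domain binding protein Ldb2, against 2 libraries from wild type mice. The labels give no detail of the allele and name no tissue-specific deletion. All were from back skin of C57BL/6 mice at postnatal day 63, treated with dispase to loosen the epidermis. The labels do not say whether the 2 libraries of a genotype came from separate animals or whether animals were pooled, so p-values measure only the spread between these libraries. Libraries held 54095522 and 68436842 counts in LDB2-/- and 67307536 and 57517162 counts in wild type. Ldb2 itself had 0 and 0 counts in LDB2-/- and 0 and 8 counts in wild type, so it was too low to check the genotype labels.

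Markers of the labelled tissue were present in every library, and markers of several cell types moved with the genotype. Levels of genes between genotypes are given as scaled CPM, counts scaled to a common library size with TMM, a method that lines up the bulk of the genes. Summed over the 12 listed basal keratinocyte markers, scaled CPM was 11340 and 11480 in LDB2-/- and 27440 and 25210 in wild type, and all 12 were lower. Suprabasal keratinocyte markers summed to 8644 and 8495 in LDB2-/- and 37550 and 31950 in wild type, with 9 of 13 lower and 2 higher. Sebaceous gland markers summed to 5736 and 5323 in LDB2-/- and 10860 and 13010 in wild type, with 15 of 16 lower and 1 higher.

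Hair shaft and inner root sheath markers went the other way, with 24 of 24 higher and sums of 134700 and 147300 in LDB2-/- against 248.7 and 986 in wild type. All 11 melanocyte markers were higher, with sums of 2611 and 2733 in LDB2-/- and 64.7 and 104 in wild type. Red cell markers summed to 4176 and 5798 in LDB2-/- and 172 and 96.9 in wild type, with 4 of 5 tested higher. Endothelial markers summed to 86.8 and 94.3 in LDB2-/- and 8.04 and 12.2 in wild type, with 6 of 6 tested higher and Kdr at 0 in both LDB2-/- libraries. Muscle markers summed to 210.3 and 206 in LDB2-/- and 84.0 and 83.7 in wild type, with 10 of 10 tested higher and Myh1 at 0 in both wild type libraries.

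Fibroblast markers were higher for 8 of 9 tested, with sums of 338 and 424 in LDB2-/- and 154 and 131 in wild type. Adipocyte markers were split, 2 higher and 2 lower of 4 tested, with sums of 853 and 892 in LDB2-/- and 106 and 110.3 in wild type. Most of the LDB2-/- sum was Fabp4, at 700.4 and 741 in LDB2-/- and 1.19 and 2.54 in wild type, a gene that other cells also express. The defining genes Adipoq, Retn and Plin1 were near 0 in both genotypes, with at most 17 counts in a library. Macrophage markers summed to 117 and 156 in LDB2-/- and 97.9 and 104 in wild type, with 5 of 7 tested higher and 2 lower. T cell and Langerhans cell markers summed to 1111 and 1297 in LDB2-/- and 1766 and 1847 in wild type, with 7 of 9 tested lower. The part of these shifts in the values of the solute carriers was not tested, and in bulk tissue fewer cells of a type and less RNA per cell cannot be told apart.

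The metal transporters were the substrate class with the largest shift towards LDB2-/- among the 8 classes of 7 or more genes, so the sequences ahead of their starts are shown first. Vertebrate cells raise some metal genes through metal response elements, short sites bound by the zinc-sensing factor Mtf1. The cores TGCACNC and TGCGCNC, of which no match to one is a match to the other, were searched on both strands in the 250 bases ahead of 1 start per gene, the most upstream that a RefSeq promoter table (GRCm38.p6) lists. Of 27025 genes in that table, 21.3% held at least 1 core, and of 9463 tested genes 30.1% did. Of the 100 solute carrier genes in the table, 35 held one, and of 17 metal transporters 7 (41.2%) did. Windows of 29 bases around each match follow, 5′ to 3′ on the gene's strand, with the core in capitals. Cores written as GNGTGCA or GNGCGCA lie on the opposite strand.
Slc30a1, chr1:191906727-191906755 (plus strand): acgggggttccGAGTGCAaagcaaagttt
Slc30a4, chr2:122702874-122702902 (minus strand): ccgggggctcaGAGCGCAcaagacctcag
Slc30a4, chr2:122702738-122702766 (minus strand): tcgcgcctcgcGGGCGCAcgcgccgcctc
Slc30a5, chr13:100833458-100833486 (minus strand): cgtgtccaccaGCGCGCAggcgcaggatt
Slc31a2, chr4:62286180-62286208 (plus strand): ccttttaatttTGCACTCaacatgtgtta
Slc39a3, chr10:81037442-81037470 (minus strand): catttggtagcTGCACTCatgtttagaaa
Slc39a11, chr11:113650090-113650118 (minus strand): aaagggaaggaGAGCGCAgcgaacccacg
Slc41a1, chr1:131827770-131827798 (plus strand): tgggaactcagGAGCGCAgcacccgcccg

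The match of Slc30a1 began 43 bases ahead of the start in that table, which lies inside the wider RefSeq span of the gene given below, so the window is not ahead of every annotated start. Those of Slc39a11 and Slc30a5 began 15 and 48 bases ahead of the table's start. Of these 7 genes, Slc30a1, Slc30a4 and Slc41a1 were higher in LDB2-/-, Slc30a5 and Slc39a11 were lower, and Slc31a2 and Slc39a3 were not called. The windows of Slc39a8, Slc39a10 and Slc31a1, all higher in LDB2-/-, held no match, which says only that these letters were not there. A match is a string of letters and not a shown binding site.

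Across the 133 genes, 44 were higher and 51 were lower in LDB2-/- at an adjusted p under 0.05 (edgeR quasi-likelihood test, Benjamini-Hochberg over all 12400 genes tested), and 38 were not called. That is 33.1% and 38.3%, beside 28.4% higher and 28.8% lower among all genes tested. In either direction that is 71.4%, beside 57.2% of all genes tested. Among the 9101 tested genes that pass the same FPKM rule the shares were 32.1% higher, 28.3% lower and 60.5% either way. The median log2 fold change, LDB2-/- over wild type, was -0.15 for the solute carriers and -0.01 for all genes tested. The balance of directions depends on the scaling. With libraries scaled by their total alone, which moved the median of all tested genes to -0.33, 30 solute carriers were higher and 70 were lower. The counts from limma, run on log2(FPKM + 1), were 31 and 73. Changes below are relative to the TMM scaling.

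The FPKM rule itself fixed the direction of some genes. Of the 133, 81 reached 5 FPKM in all 4 libraries, 10 only in both LDB2-/- libraries, 30 only in both wild type libraries, and 12 in another combination. A gene that passed through 1 genotype had to differ, so these counts describe the set and support nothing about it, and the p-value of such a gene is a description too. Through LDB2-/- alone passed Slc7a8, Slc38a3, Slc6a13, Slc9a2, Slc23a3, Slc34a2, Slc4a11, Slc19a1, Slc25a35 and Slc39a14. Among those that passed through wild type alone were Slc6a14, Slc2a12, Slc16a14, Slc22a4, Slc25a48, Slc24a3, Slc5a1, Slc6a4, Slc5a9 and Slc1a1. The 81 genes at 5 FPKM in all 4 libraries included 29 higher, 20 lower and 32 not called. Values just inside the rule were 5.29 for Slc25a35, 5.38 for Slc25a45 and 5.42 for Slc9a9 (second highest FPKM of the 4 libraries). Just outside lay Slc12a9 at 4.97, Slc22a18 at 4.90 and Slc2a5 at 4.82.

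The genotypes did not overlap in scaled CPM for 114 of the 133 genes, beside 82.5% of all genes tested and 84.1% of those that pass the FPKM rule. Changes of 4-fold or more were called for 11 genes higher and 12 lower, where 6.05% and 5.19% of all genes tested were so called, and 5.2% and 4.43% of those that pass the FPKM rule. In the authors' deposited table, 44 of the genes were higher and 53 lower at an adjusted p of 0.05. Of its 17390 genes with an adjusted p, 23.5% and 24.0% were. Those take in genes too low to be tested here, and the share among genes that pass the FPKM rule was not worked out. That table, from the same 4 libraries, called the same 44 genes higher and the same 51 lower, and called 0 of them in opposite directions. Solute carrier counts summed to 0.916% and 0.871% of all counts in LDB2-/- and 0.902% and 0.933% in wild type.

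**Figure D1:**
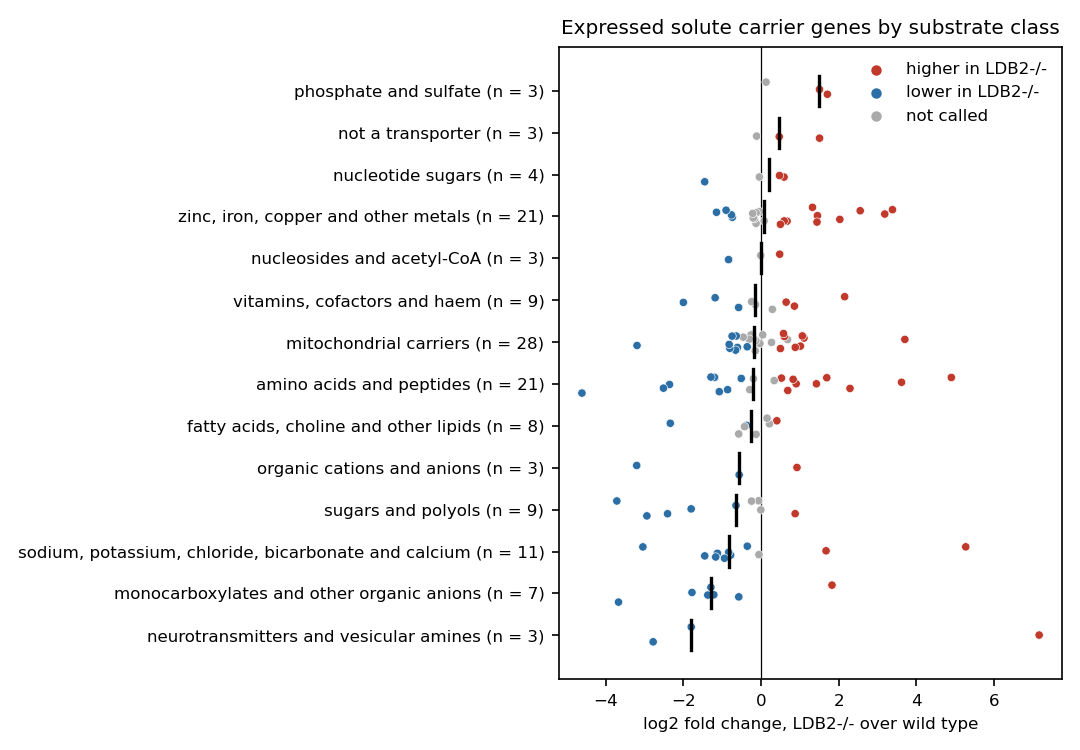
Log2 fold change of each of the 133 genes, LDB2-/- over wild type, by substrate class, with classes ordered by their median (black bar) and n the genes in the class. Red points are genes higher in LDB2-/- and blue points genes lower at an adjusted p under 0.05, and grey points are not called. Medians run from 1.51 for phosphate and sulfate to -1.795 for neurotransmitters, and every class of 7 or more genes holds genes on both sides of 0.

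Levels differed widely between genes. By FPKM, which accounts for transcript length, the median over the 133 genes was 9.96 (mean of 4 libraries), 14 genes exceeded 50, and the top 5 held 33.6% of the summed FPKM. Those were the mitochondrial adenine nucleotide carrier Slc25a5 (497), the mitochondrial phosphate carrier Slc25a3 (283), the fatty acid carrier Slc27a4 (128), the mitochondrial citrate carrier Slc25a1 (124) and the adenine nucleotide carrier Slc25a4 (103).

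Of 21 metal transporters, 10 were higher in LDB2-/- and 4 lower (47.6% and 19.0%, beside 28.4% and 28.8% of all genes tested). Their summed scaled CPM was 2339 and 2353 in LDB2-/-, against 1172 and 1213 in wild type, a log2 ratio of 0.98 with no test, since 2 libraries against 2 cannot give an exact permutation p below 0.333. The median change of single genes was 0.08. Scaled by library total alone, 7 were higher and 9 lower with a median of -0.24, and the ratio of the sums was 0.66. Of the 19 that reached 5 FPKM in all 4 libraries, 9 were higher and 4 lower.

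Slc40a1, which encodes ferroportin, the iron exporter of animal cells (gene ID 53945, chromosome 1, 45908070 to 45926532, GRCm38), had a scaled CPM of 310.2 and 288 in LDB2-/- and 28.9 and 28.5 in wild type. Both LDB2-/- libraries stood about level and far above both wild type libraries. Its log2 fold change was 3.38 (edgeR adjusted p = 7.14e-05, SE 0.11). Slc39a8 encodes an importer of zinc, iron and manganese (gene ID 67547, chromosome 3, 135816882 to 135888572), and its scaled CPM was 373 and 380.1 in LDB2-/- and 38.3 and 44.5 in wild type. It rose by 3.19 on the log2 scale (edgeR adjusted p = 8.65e-05, SE 0.13).

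Slc30a1, the zinc exporter of the plasma membrane (gene ID 22782, chromosome 1, 191906697 to 191913248), had a scaled CPM of 203 and 215 in LDB2-/- and 30.2 and 40.97 in wild type. The genotypes were far apart, and the log2 fold change was 2.55 (edgeR adjusted p = 0.000241, SE 0.17). Of its exon bases, 8.92% are shared with 1700034H15Rik on the other strand, which held 161 and 201 counts in LDB2-/- and 73 and 99 in wild type beside 10057 and 12805 counts of Slc30a1 in LDB2-/- and 2241 and 2648 in wild type. Slc39a10, a zinc importer, was at 134 and 122 in LDB2-/- and 26.5 and 36.1 in wild type (log2 fold change 2.03, adjusted p = 0.000472, edgeR).

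The zinc importer Slc39a6, at 244 and 243 in LDB2-/- and 81.6 and 96.3 in wild type, rose by 1.45. Slc31a1, the copper importer, was at 216 and 226 in LDB2-/- and 86.7 and 89.7 in wild type and rose by 1.33. Slc39a14, an importer of zinc, iron and manganese, rose by 1.44 and reached 5 FPKM in LDB2-/- alone. The magnesium transporter Slc41a1, the zinc channel Slc39a7 of the secretory pathway and the vesicular zinc transporter Slc30a4 rose by 0.67, 0.60 and 0.50, and the call of Slc39a7 was lost by the library total alone (0.28, adjusted p = 0.0655).

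Importers and exporters of zinc were thus found among both the higher and the lower genes. Lower in LDB2-/- were Slc30a5, which loads zinc into the secretory pathway (-1.15, SE 0.13), the iron importer Slc11a2 (-0.90, SE 0.11), and the zinc transporters Slc39a13 (-0.76, SE 0.14) and Slc39a11 (-0.74, SE 0.12). By family, 5 of 10 Slc39 genes were higher and 2 lower, and 2 of 6 Slc30 genes were higher and 1 lower. The abundant importer Slc39a1 had 102 and 117 in LDB2-/- and 124 and 115 in wild type, overlapping between the genotypes, with a log2 fold change of -0.13 (adjusted p = 0.401, edgeR). It was called lower by the library total alone (-0.45, adjusted p = 0.0158) and by limma on FPKM. Slc31a2, which lies 62171 bases from Slc31a1 on chromosome 4, overlapped as well (-0.17, adjusted p = 0.306, edgeR).

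Of the other genes of metal binding and iron handling, 5 of 16 tested were higher and 6 lower, with a median of -0.19. As shares these are 31.2% and 37.5%, beside 28.4% and 28.8% of all genes tested. The iron reductase gene Cybrd1 had a scaled CPM of 60.2 and 66.7 in LDB2-/- and 1.08 and 1.19 in wild type (log2 fold change 5.80). Steap1, of a family of metal reductases, rose by 4.81 and Mt4, a metallothionein of stratified epithelium, by 2.53, while the reductase gene Steap4 fell by 2.49. The metallothioneins Mt1 and Mt2, which bind zinc and are induced by it, had log2 fold changes of 0.19 and -0.10 and were not called. Mtf1 was lower, with a log2 fold change of -0.53 (adjusted p = 0.0176, edgeR). Red cell and macrophage markers, from cells that handle much iron, moved with the genotype as given above, and their part was not tested.

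**Figure D2:**
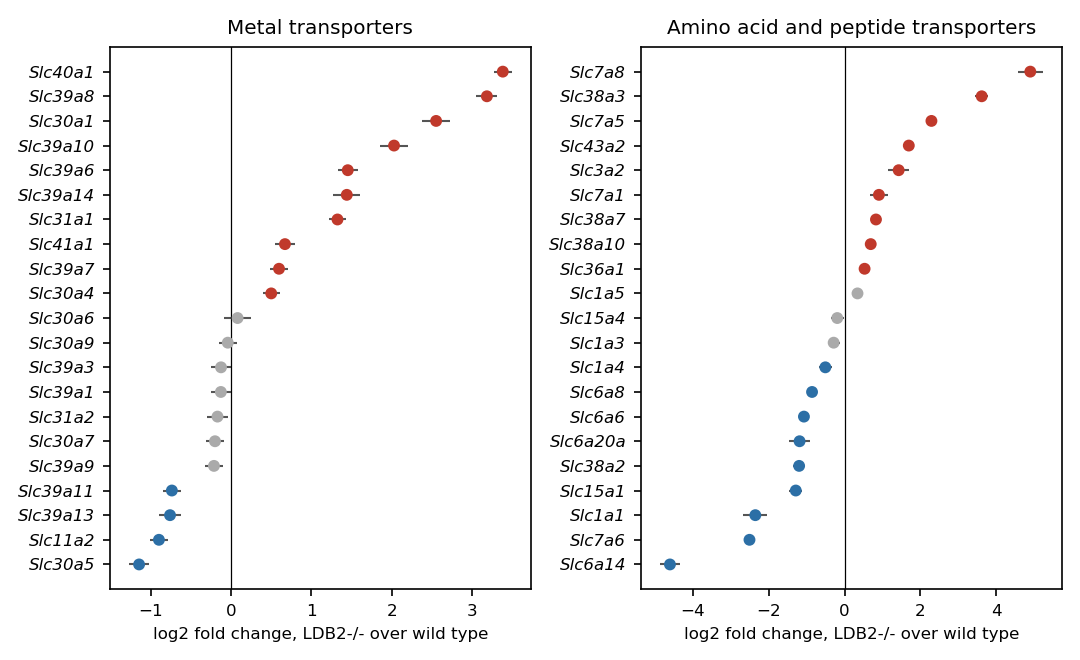
Log2 fold change, LDB2-/- over wild type, of the 21 metal transporters (left) and the 21 amino acid and peptide transporters (right), with bars of 1 standard error; red is higher, blue lower and grey not called. Metal transporters run from 3.38 for Slc40a1 to -1.15 for Slc30a5, and amino acid transporters from 4.90 for Slc7a8 to -4.61 for Slc6a14.

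Amino acid and peptide transporters were split evenly, with 9 of 21 higher, 9 lower and 3 not called. Beside 28.4% higher and 28.8% lower among all genes tested, 42.9% of these transporters were higher and 42.9% lower. Their summed scaled CPM was 1892 and 1776 in LDB2-/- and 1467 and 1497 in wild type, a log2 ratio of 0.31, which became -0.01 by the library total alone, where 7 genes were higher and 11 lower. Of the 12 that reached 5 FPKM in all 4 libraries, 6 were higher and 4 lower. Of 7 Slc6 genes, which include 3 neurotransmitter carriers, 1 was higher and 6 were lower. Of the 6 lower ones, Slc6a14, Slc6a20a and Slc6a4 passed the FPKM rule through wild type alone.

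The Slc7 light chains changed in opposite directions. Slc7a8 exchanges large neutral amino acids (gene ID 50934, chromosome 14, 54722215 to 54781886), and its scaled CPM was 274 and 281 in LDB2-/- and 12.2 and 6.42 in wild type. It was high in both LDB2-/- libraries and low in both wild type libraries, with a log2 fold change of 4.90 (edgeR adjusted p = 0.000234, SE 0.33). Slc7a8 passed the FPKM rule through LDB2-/- alone, so its direction was fixed by that rule. Slc7a5, the other large neutral amino acid exchanger of skin (gene ID 20539, chromosome 8, 121881146 to 121907686), was at 189 and 220.0 in LDB2-/- and 38.03 and 45.7 in wild type. It rose by 2.29 (edgeR adjusted p = 0.000211, SE 0.15).

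Slc7a6 (gene ID 330836, chromosome 8, 106168219 to 106198714), which exchanges cationic for neutral amino acids, went the other way. Its scaled CPM was 23.6 and 24.5 in LDB2-/- and 137 and 137 in wild type, and its log2 fold change was -2.51 (edgeR adjusted p = 8.65e-05, SE 0.11). In FPKM, Slc7a8 was 10.7 and 10.6 times Slc7a6 in LDB2-/- and 0.082 and 0.0433 times Slc7a6 in wild type, so the order of these 2 levels was inverted between the genotypes. Slc7a6os, whose annotated end lies 1724 bases from Slc7a6, was not called (-0.11, adjusted p = 0.594, edgeR).

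Slc3a2, the heavy chain that these light chains need (gene ID 17254, chromosome 19, 8706882 to 8723369), had a scaled CPM of 416 and 293 in LDB2-/- and 161 and 103 in wild type. Its libraries spread more than most, but the genotypes stayed apart and it rose by 1.43 (edgeR adjusted p = 0.00656, SE 0.27). Slc7a1, a carrier of arginine and lysine that works without Slc3a2, had 67.1 and 58.7 in LDB2-/- and 25.8 and 41.4 in wild type and rose by 0.91. The cystine exchanger Slc7a11, another partner of Slc3a2, was under the FPKM rule, with 1.31 and 1.15 FPKM in LDB2-/- and 0.269 and 0.151 FPKM in wild type (log2 fold change 2.85, adjusted p = 0.00127, edgeR).

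Among other neutral amino acid carriers, the glutamine carrier Slc38a3 had 35.2 and 37.5 in LDB2-/- and 2.93 and 3.002 in wild type and rose by 3.62. Slc43a2, a uniporter of large neutral amino acids, had 171 and 190 in LDB2-/- and 54.95 and 56.4 in wild type and rose by 1.69. Its relative Slc43a1, under the FPKM rule, was lower (-2.48, adjusted p = 0.00663, edgeR). Slc38a2, a sodium-driven carrier that responds to amino acid supply, was lower, with 138 and 112 in LDB2-/- and 261 and 313 in wild type (log2 fold change -1.20, adjusted p = 0.00176, edgeR). The glutamine carrier Slc1a5 stood a little higher in both LDB2-/- libraries, 24.4 and 24.2 against 18.3 and 20.1 in wild type, and was not called (0.34, adjusted p = 0.0918, edgeR).

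The largest fall of all 133 genes was that of Slc6a14, a carrier of neutral and cationic amino acids (gene ID 56774, chromosome X, 21714900 to 21742358). Its scaled CPM was 1.31 and 0.924 in LDB2-/- and 29.4 and 24.9 in wild type, a log2 fold change of -4.61 (edgeR adjusted p = 0.000159, SE 0.26). The glutamate carrier Slc1a1 had 3.02 and 5.51 in LDB2-/- and 21.6 and 22.2 in wild type and fell by 2.36. For Slc1a1, 31.9% of its exon bases are shared with 4430402I18Rik on the other strand, which held at most 25 counts in a library. The taurine carrier Slc6a6, the creatine carrier Slc6a8 and the peptide carrier Slc15a1 fell by 1.07, 0.86 and 1.29.

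A list of genes that cells raise when amino acids run short held 11 of 21 tested higher and 5 lower, with a median of 0.44. As shares these are 52.4% and 23.8%, beside 28.4% and 28.8% of all genes tested. Chac1, which degrades glutathione, rose by 3.17, the proline synthesis gene Pycr1 by 2.51 and the tRNA synthetase gene Gars by 1.71. Atf4, the factor of that response, had 228 and 234 in LDB2-/- and 194 and 179 in wild type and missed the threshold (0.31, adjusted p = 0.0512, edgeR). Lower were Trib3 (-1.82), a larger change than that of Gars, the serine synthesis genes Psat1 (-1.17) and Psph (-1.19), Nupr1 (-1.19) and Cebpg (-0.59). Cebpb had 276 and 4.32 in LDB2-/- and 266 and 258 in wild type, so 1 LDB2-/- library stood far from the other 3.

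**Figure D3:**
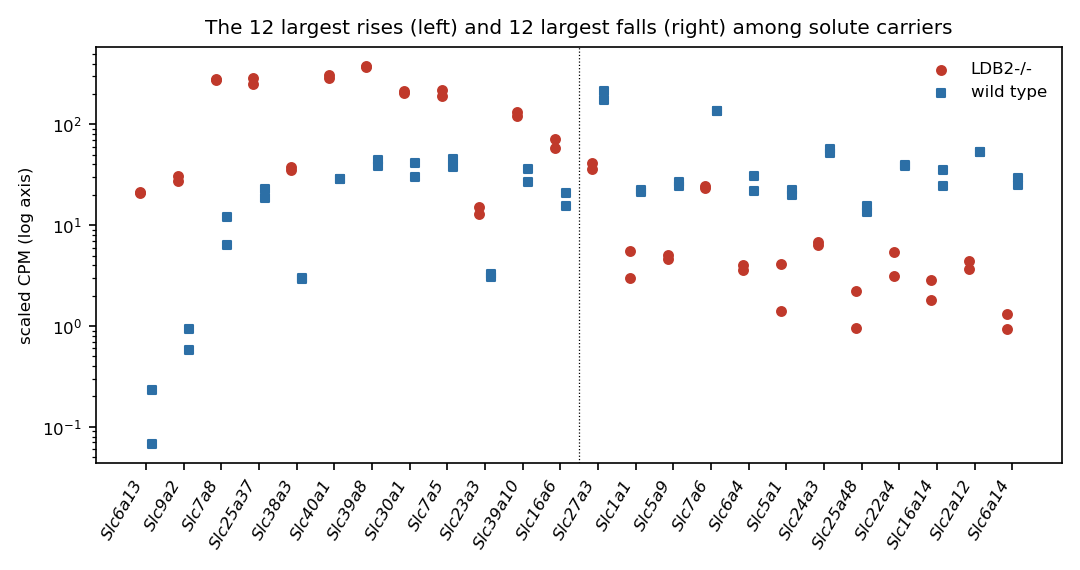
Scaled CPM on a log axis in each library for the 12 genes with the largest called rise (left of the dotted line) and the 12 with the largest called fall (right), LDB2-/- as red circles and wild type as blue squares. In all 24 genes both LDB2-/- libraries lie on the same side of both wild type libraries. The genes were chosen by their change in these libraries, so this separation only describes the choice. Over all genes tested, the genotypes did not overlap for 82.5%. Slc6a13 has the lowest wild type values, 0.0674 and 0.232, and Slc39a8 the highest LDB2-/- values, 373 and 380.1.

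The 28 genes of the Slc25 family, which carry metabolites across the inner mitochondrial membrane and, for Slc25a17, the peroxisomal membrane, showed 8 higher, 8 lower and 12 not called. That is 28.6% each way, about the 28.4% higher and 28.8% lower of all genes tested. Their summed scaled CPM was 2843 and 2974 in LDB2-/- and 2246 and 2115 in wild type, a log2 ratio of 0.42 that was 0.10 with libraries scaled by their total alone. By that scaling 5 were higher and 15 lower. With TMM, the 20 at 5 FPKM in all 4 libraries held 6 higher and 3 lower. Slc25a37, mitoferrin 1, brings iron into mitochondria (gene ID 67712, chromosome 14, 69241848 to 69285544). Its scaled CPM was 285 and 249 in LDB2-/- and 18.5 and 22.6 in wild type, a log2 fold change of 3.70 (edgeR adjusted p = 8.69e-05, SE 0.16). Its relative Slc25a28, mitoferrin 2, had 23.2 and 29.8 in LDB2-/- and 37.5 and 35.3 in wild type and was not called (-0.46, adjusted p = 0.0551, edgeR). Mitoferrin 1 is the form that red cell precursors use, and the red cell markers given above moved in the same direction, and their part was not tested.

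Both adenine nucleotide carriers, which exchange ADP for ATP, rose by unequal amounts. Slc25a4 had 161 and 169 in LDB2-/- and 78.1 and 75.0 in wild type and rose by 1.11 (edgeR adjusted p = 0.000631, SE 0.11). Slc25a5 had 777 and 831 in LDB2-/- and 549.8 and 510.3 in wild type and rose by 0.60 (edgeR adjusted p = 0.0121, SE 0.14), a call lost by the library total alone (0.28, adjusted p = 0.0828), by limma on FPKM, under the replicate block and without LDB2-/- replicate 2 (0.55, adjusted p = 0.102). In FPKM, Slc25a4 was 0.242 and 0.237 of Slc25a5 in LDB2-/- and 0.166 and 0.172 of it in wild type. Slc25a4 is the form of muscle, and muscle markers were higher in LDB2-/- as given above, and their part was not tested.

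Other mitochondrial genes moved in both directions. The dicarboxylate carrier Slc25a10 rose by 1.06, Slc25a39, a glutathione carrier, by 0.88, and the phosphate carrier Slc25a3 by 0.58, a call lost under the same 4 settings as that of Slc25a5. The citrate carrier Slc25a1 had 144 and 174 in LDB2-/- and 254 and 247 in wild type, a log2 fold change of -0.65 (edgeR adjusted p = 0.00787, SE 0.13). Slc25a48 had 0.947 and 2.22 in LDB2-/- and 13.7 and 15.5 in wild type and fell by 3.19. The oxoglutarate carrier Slc25a11 and the acylcarnitine carrier Slc25a20 overlapped between the genotypes, with log2 fold changes of 0.05 and -0.03.

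Of 9 carriers of sugars and polyols, 5 were lower, 1 was higher and 3 were not called. Among all genes tested 28.8% were lower and 28.4% higher, and among these carriers 55.6% and 11.1%. Their summed scaled CPM was 196 and 192 in LDB2-/- and 386 and 438 in wild type, a log2 ratio of -1.09, and 4 of the 9 passed the FPKM rule through wild type alone, all of them among the 5 lower genes. The other 5, at 5 FPKM in all 4 libraries, held 1 higher, 1 lower and 3 not called. Slc2a1, the main glucose transporter of keratinocytes (gene ID 20525, chromosome 4, 119108745 to 119137330), had 60.5 and 56.2 in LDB2-/- and 178 and 228 in wild type. It was low in both LDB2-/- libraries, with a log2 fold change of -1.797 (edgeR adjusted p = 0.000464, SE 0.15).

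The glucose transporter Slc2a12 (gene ID 353169, chromosome 10, 22644990 to 22703880) had 3.67 and 4.42 in LDB2-/- and 52.9 and 53.04 in wild type, a log2 fold change of -3.71 (edgeR adjusted p = 9.57e-05, SE 0.16). Shared exon bases with Tbpl1 on the other strand made up 9.61% of its exons. The sodium-driven carriers Slc5a1 and Slc5a9 fell by 2.94 and 2.40, with 4.17 and 1.40 for Slc5a1 in LDB2-/- against 22.3 and 20.02 in wild type. In the sugar phosphate family, Slc37a3 rose by 0.88 and Slc37a2 fell by 0.64, and Slc37a1, under the FPKM rule, was lower (-2.14, adjusted p = 0.000836, edgeR). Slc37a4, the glucose 6-phosphate transporter of the endoplasmic reticulum, and the glucose transporter Slc2a8 overlapped between the genotypes and were not called (adjusted p = 0.986 and 0.765, edgeR).

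Among the 7 Slc16 genes, the monocarboxylate family, 6 were lower and 1 higher (85.7% and 14.3%, beside 28.8% and 28.4% of all genes tested). Of the 7, 4 passed the FPKM rule through wild type alone. The 2 at 5 FPKM in all 4 libraries were both lower. Over all 7 genes, summed scaled CPM was 162 and 172 in LDB2-/- and 261 and 319 in wild type, a log2 ratio of -0.80. Under the FPKM rule, Slc16a7 and Slc16a11 were higher (2.34 and 0.95, adjusted p = 0.000796 and 0.0179, edgeR). Slc16a10, also under the rule, was not called (0.36). Slc16a1, a lactate and pyruvate carrier (gene ID 20501, chromosome 3, 104638664 to 104658462), had 35.7 and 32.5 in LDB2-/- and 105 and 128 in wild type. Its log2 fold change was -1.78 (edgeR adjusted p = 0.000361, SE 0.14), close in size to that of Slc2a1. In FPKM, the lactate carriers Slc16a1 and Slc16a3 together were 0.508 and 0.543 of Slc2a1 in LDB2-/- and 0.444 and 0.480 of it in wild type. This ratio leaves out Slc16a7, whose FPKM was 4.46 and 5.38 in LDB2-/- and 1.14 and 1.29 in wild type. It therefore does not describe the whole family.

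Slc16a3, the lactate exporter of glycolytic cells, had 9.57 and 11.2 in LDB2-/- and 17.1 and 33.6 in wild type, where the libraries differed. It fell by 1.29 (adjusted p = 0.0201, edgeR), a call lost with crossed pairs as a block and without wild type replicate 2 (-0.72, adjusted p = 0.0585). Slc16a14 had 2.88 and 1.83 in LDB2-/- and 24.4 and 35.3 in wild type and fell by 3.67. The carnitine carrier Slc16a9 fell by 1.21. Of the 7 genes that pass the FPKM rule, Slc16a6 was the one that rose. It had 58.5 and 72.0 in LDB2-/- and 21.1 and 15.7 in wild type (1.83, SE 0.19, adjusted p = 0.000896, edgeR). It shares 21.5% of its exon bases with Amz2 on the other strand, which was not called.

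Of the partners and pumps that solute carriers work with, 4 of 27 tested were higher and 15 lower, with a median of -0.69. As shares these are 14.8% and 55.6%, beside 28.4% and 28.8% of all genes tested. Emb, which encodes embigin, had 57.4 and 48.3 in LDB2-/- and 288 and 306 in wild type and fell by 2.49. Bsg, which encodes basigin, was higher, with 443 and 539 in LDB2-/- and 324 and 284 in wild type (0.69, adjusted p = 0.0111, edgeR), so the 2 partners of the lactate carriers moved in opposite directions. The mitochondrial pyruvate carrier genes Mpc1 and Mpc2 fell by 0.94 and 1.06, and the ABC transporter genes Abca1 and Abcc4 by 2.40 and 2.38.

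**Figure D4:**
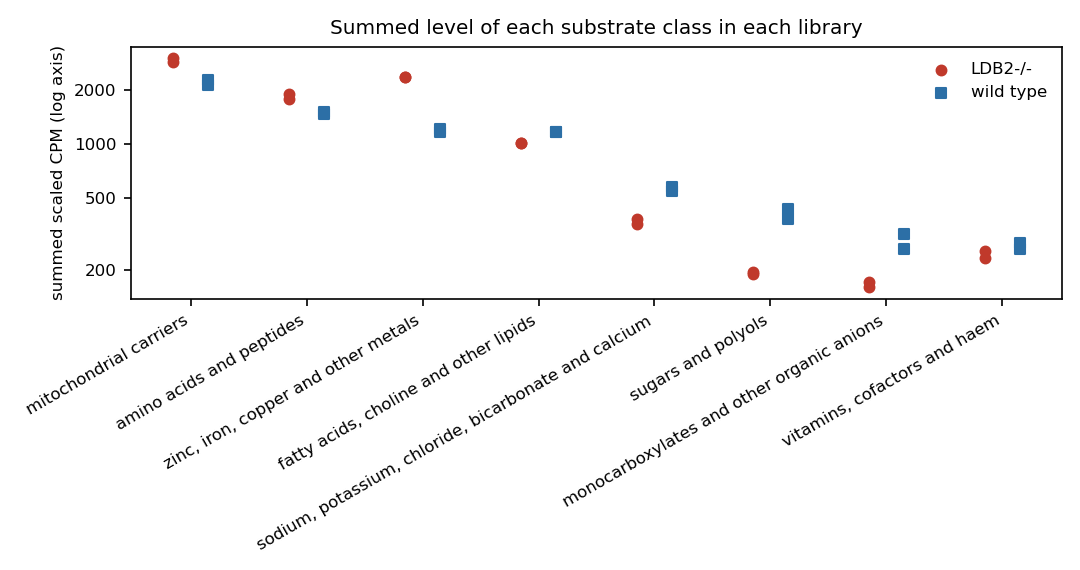
Summed scaled CPM of each substrate class of 7 or more genes in each library, on a log axis, with LDB2-/- as red circles left of wild type as blue squares. Metal transporters lie at 2339 and 2353 in LDB2-/- above 1172 and 1213 in wild type, and the sums of sugars, ions and monocarboxylates lie lower in both LDB2-/- libraries. Sums weigh abundant genes most, and no test was made on them.

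Transporters of sodium, potassium, chloride, bicarbonate and calcium were lower in 8 of 11 cases and higher in 2. Among all genes tested 28.8% were lower and 28.4% higher, and among these transporters 72.7% and 18.2%. Their summed scaled CPM was 383 and 361 in LDB2-/- and 551 and 577 in wild type, a log2 ratio of -0.60, and 6 of the 11 passed the rule through wild type alone. Of the 3 at 5 FPKM in all 4 libraries, 2 were lower. All 4 Slc12 genes, which move chloride together with potassium or sodium, were lower. Slc12a2, which loads cells with chloride, had 34.03 and 31.2 in LDB2-/- and 89.7 and 88.1 in wild type and fell by 1.45 (edgeR adjusted p = 0.000316, SE 0.11). The potassium chloride exporters Slc12a7 and Slc12a4 fell by 0.94 and 0.83.

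The calcium exchanger Slc24a3 (gene ID 94249, chromosome 2, 145167775 to 145642166) had 6.81 and 6.35 in LDB2-/- and 56.6 and 51.6 in wild type, a log2 fold change of -3.04 (edgeR adjusted p = 0.000108, SE 0.14). Of the sodium proton exchangers, Slc9a9, of endosomes, fell by 0.78. Slc9a2 (gene ID 226999, chromosome 1, 40681712 to 40768885) went the other way, with 27.4 and 30.5 in LDB2-/- and 0.580 and 0.928 in wild type. Its log2 fold change was 5.27 (edgeR adjusted p = 0.000152, SE 0.29). Slc4a11 rose by 1.67, and the anion exchanger Slc4a2 was not called (-0.05), but was called lower by the library total alone (-0.37).

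The 8 carriers of fatty acids, choline and other lipids held 1 higher and 2 lower gene. Slc27a4, the fatty acid carrier that the skin barrier needs in mice, had 489 and 498 in LDB2-/- and 527 and 551 in wild type and was not called (-0.13, adjusted p = 0.407, edgeR), though it was called lower by the library total alone (-0.44) and by limma on FPKM (-0.44, adjusted p = 0.00718). Slc27a3 had 41.4 and 35.8 in LDB2-/- and 215 and 175 in wild type, and its log2 fold change was -2.33 (edgeR adjusted p = 0.000216, SE 0.15). The choline carrier Slc44a2 rose by 0.41, a call lost under 6 of 14 alternatives, among them the library total alone (0.09) and each of 3 libraries left out. Sums over the class were 1011 and 1008 in LDB2-/- and 1167 and 1167 in wild type.

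Carriers of vitamins, cofactors and haem were split, with 3 of 9 higher and 3 lower (33.3% each, beside 28.4% and 28.8% of all genes tested). Of the 9, 2 passed the FPKM rule through LDB2-/- alone and 2 through wild type alone, so their direction was fixed by that rule. The 3 at 5 FPKM in all 4 libraries held 0 higher, 1 lower and 2 not called. Slc23a3, a relative of the vitamin C carriers, had 13.1 and 15.2 in LDB2-/- and 3.03 and 3.31 in wild type and rose by 2.15. The thiamine carrier Slc19a2 had 6.08 and 10.4 in LDB2-/- and 31.4 and 34.6 in wild type and fell by 1.997, whereas the folate carrier Slc19a1 rose by 0.86. The riboflavin carrier Slc52a2 rose by 0.65, and the haem transporter Slc48a1 overlapped between the genotypes (-0.14), and by the library total alone it was called lower (-0.46).

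Smaller classes held some of the largest changes. Slc6a13, a carrier of GABA and taurine (gene ID 14412, chromosome 6, 121300288 to 121337721), had 1050 and 1253 counts in LDB2-/- and 5 and 15 counts in wild type. These are 21.2 and 21.1 scaled CPM in LDB2-/- and 0.0674 and 0.232 in wild type, a log2 fold change of 7.16 (edgeR adjusted p = 0.000228, SE 0.48). The serotonin carrier Slc6a4 had 4.05 and 3.58 in LDB2-/- and 21.7 and 30.6 in wild type and fell by 2.78, and the glycine carrier Slc6a9 fell by 1.795. Slc6a9 shares 27.8% of its exon bases with Ccdc24 on the other strand, which held at most 64 counts in a library.

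Both called phosphate carriers rose, Slc34a2 by 1.71 and Slc20a2 by 1.51, while Slc20a1 was not called (0.13). Slc22a4, the ergothioneine carrier, had 3.10 and 5.41 in LDB2-/- and 39.7 and 38.7 in wild type and fell by 3.20. In the same family Slc22a23 rose by 0.93 and Slc22a17 fell by 0.56. Of the nucleotide sugar carriers of the Golgi, Slc35a4 rose by 0.48 and Slc35a1, for sialic acid, by 0.59, calls lost under 4 and 8 of 14 alternatives, and Slc35a3, for N-acetylglucosamine, fell by 1.45. The nucleoside carrier Slc29a1 had a log2 fold change of -0.01, Slc29a3 rose by 0.48, a call lost under 9 of 14 alternatives, and the acetyl-CoA carrier Slc33a1 fell by 0.83. Slc9a3r1, a scaffold protein that binds transporters, had 219.7 and 236 in LDB2-/- and 82.0 and 78.4 in wild type and rose by 1.51.

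Of the related organic anion transporters and the Slc35 genes named b to g, 5 of 21 tested were higher and 6 lower, with a median of -0.07. These shares, 23.8% and 28.6%, lay near the 28.4% and 28.8% of all genes tested. Slco5a1 had 37.8 and 33.6 in LDB2-/- and 0.378 and 0.789 in wild type and rose by 5.94. The prostaglandin carrier Slco2a1 fell by 1.74 and Slc35f6 rose by 1.61.

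Position and overlap were the other features that could be read for the set. In 5 pairs, neighbouring solute carrier genes lay within 200000 bases of each other, and in 0 of these pairs were both genes called in the same direction. Every pair but that of Slc7a8 and Slc22a17 held a gene that was not called, so this count says little. Of all genes tested, 28.4% were higher and 28.8% lower, and the share of such pairs over all genes was not worked out. Slc7a8 (higher) and Slc22a17 (lower) lay 124841 bases apart on chromosome 14. In all, 18 of the 133 genes share 50 or more exon bases with another deposited gene, 16 of them with a gene on the other strand. The sources used here do not say whether counting used strand, so reads of such a pair cannot be told apart.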

How the data were processed

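RNA from 4 libraries of back skin epidermis was measured, 2 LDB2-/- and 2 wild type. Per the submitters' processing notes, bcl2fastq 1.8.4, HISAT2 2.1.0, StringTie 1.3.4d and the build mm10 were used, with settings not given in the sources used here. The authors deposited whole-number read counts per gene, not normalized, along with FPKM values, which divide fragments by transcript length and library size, per the file headers. The deposited table also holds the authors' own comparison, given as an adjusted p-value by the Benjamini-Hochberg method and as a signed fold change, a score that is below 0 for genes lower in LDB2-/-.

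The test took in 12400 of 17721 genes, those that reached 1 FPKM in 2 or more libraries. TMM factors came to 0.920 and 0.872 for LDB2-/- and to 1.105 and 1.128 for wild type libraries 1 and 2. The test was edgeR's two-sided quasi-likelihood test with Benjamini-Hochberg adjustment over all genes tested and a threshold of 0.05. Standard errors are those implied by the F statistic, and the biological coefficient of variation was 0.194. The 2 libraries of a genotype differed far beyond counting noise, with a mean chi-square per gene of 67.5 in LDB2-/- and 87.5 in wild type. In simulated counts for 12400 genes, 200 genes were changed, far fewer than the 7097 called in the data. There, 1 of 67 changes of 1.5-fold was found, as were 36 of 67 of 2-fold (53.7%) and 65 of 66 of 4-fold (98.5%). False calls numbered 17. The Benjamini-Hochberg cut-off is stricter where fewer genes change, so these shares do not carry over to the data.

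Substrate classes follow the family numbers, with single genes moved where the family is mixed. Slc4a1ap was moved to the genes that are not transporters after the table was read. The members, classes, gene lists and the rule for named genes were chosen with earlier results of these data known. Named were the 12 largest called changes in each direction, in each class the 2 genes with the highest mean FPKM and the 2 largest called changes, 18 genes of wide interest such as Slc2a1, genes at the edge of the FPKM rule, and up to 3 called genes of each partner list. Other genes of a class named as examples, and genes of a partner list named as exceptions, were chosen after their values were seen. Some genes that the rule selects are left out of the text. Coordinates and promoters come from RefSeq tables of GRCm38.p6, matched by gene ID, and shared exon bases from GENCODE M21.

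Alternatives were the library total alone, size factors and the Wald test of DESeq2, TMM without hair genes, limma on log2(FPKM + 1), robust fitting, other filters, other FPKM rules, the replicate number as a block and each library left out. Crossed pairs as a block and the authors' comparison were added after seeing the data. Tools were edgeR 4.0.16, DESeq2 1.42.0 and limma 3.58.1 in R 4.3.3, and pandas 2.3.3 and matplotlib 3.10.9 in Python 3.11.15.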

Additional observations from a re-analysis of the deposited data

How the results depend on the processing

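With 2 libraries a genotype, an uncalled gene is not shown to be alike in both genotypes. On simulated data changes under 2-fold were often missed, but only 200 genes were changed there, so how often the data miss them is not known. The split between higher and lower followed the scaling: of the genes called, 46.3% were higher with TMM and 30.0% by the library total alone, and leaving hair genes out of TMM kept 46.3%. With a rule of 10 FPKM in place of 5, 27 genes were lower in place of 51 and 30 were higher in place of 44 (80 genes). Every other setting kept both counts within 1.5 times. Leaving out 1 library gave 35 to 40 higher and 42 to 47 lower genes, and 5669 to 6702 genes called in all, against 7097.

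The log2 ratio of summed scaled CPM, LDB2-/- over wild type, moved for all 8 classes with libraries scaled by their total alone and with summed FPKM. By the total it was -0.009 for amino acids (0.31 with TMM), 0.10 for mitochondrial carriers (0.42), 0.66 for metals (0.98), -0.92 for ions (-0.60), -1.41 for sugars (-1.09), -0.47 for vitamins (-0.15), -0.53 for lipids (-0.21) and -1.12 for monocarboxylates (-0.80). From summed FPKM it was 0.10 for amino acids, 0.10 for mitochondrial carriers, 0.53 for metals, -0.85 for ions, -1.33 for sugars, -0.43 for vitamins, -0.63 for lipids and -1.19 for monocarboxylates. Lipids came to -0.20 with DESeq2 size factors and -0.20 with TMM without hair genes. With genes chosen by a mean FPKM of 5 or more, amino acids came to 0.37, ions to -0.77 and metals to 1.00. Sugars ranged from -1.18 to -0.997 with 1 library left out.

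Of the 60 named genes under 14 alternatives, 5 changed sign, all uncalled. Slc29a1 was 0.004 with DESeq2 size factors and 0.004 with DESeq2's Wald test, and ranged from -0.19 to 0.17 with 1 library left out. Slc20a1 was -0.19 with the total alone, -0.24 with limma on FPKM and -0.045 to 0.33 with 1 library left out. Slc52a3 was -0.025 with the total alone and -0.056 with limma. With 1 library left out, Slc7a6os ranged from -0.27 to 0.061 and Slc35a2 from -0.20 to 0.11. Of 11 called genes that lost their call somewhere, calls were lost most often for Slc29a3 (9 of 14), Slc35a1 (8), Slc4a1ap (7) and Slc44a2 (6). The cause was not tested.

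Same-numbered libraries deviated in opposite directions (correlation -0.20), so the numbers do not pair them. The replicate block, left with 1 residual degree of freedom, gave 35 higher and 46 lower genes, and the crossed pairing gave 40 and 50.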
